A study of Mus musculus with 24 samples.

Results

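Tamoxifen was compared with vehicle in the gastrocnemius, the large calf muscle, of female mice built so that tamoxifen triggers the deletion of Numb and Numbl in muscle fibres. The comparison was taken as the whole count table of females that carry the Cre transgene, and it holds 6 of the 24 libraries of the series. The 3 libraries 871, 919 and 921 come from tamoxifen mice, and they are set against the 3 libraries 902, 920 and 922 from vehicle mice. All 6 carry HSA-MCM together with Numb(f/f) and NumbL(f/f). Both genes are therefore floxed in the vehicle animals too, and both groups carry MerCreMer, a Cre recombinase fused to ligand-binding domains of the mouse oestrogen receptor, which tamoxifen activates. The human skeletal actin promoter (HSA) restricts the recombinase to muscle fibres, so nerve, vessel, fat, immune and stem cells in the same piece of muscle are expected to keep both genes. Strain, age, dose, the time between tamoxifen and dissection, and whether each library is a separate animal are not given in the labels, so a p-value here speaks only of the spread among these libraries. For comparison, 3 tamoxifen and 3 vehicle libraries of females with the same floxed alleles and no transgene (flox females) and the same comparison in transgene males were read side by side. The male fit also held 6 libraries of males without the transgene (flox males), 3 tamoxifen and 3 vehicle, whose titles read WT. Values per library are given in the order 871, 919, 921 for tamoxifen and 902, 920, 922 for vehicle, as CPM, a gene's reads scaled to the size of its library.

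Numb and its paralogue Numbl encode adaptor proteins that link cargo at the cell surface to clathrin and AP2 for uptake, and they are best known for restraining the receptor Notch when a dividing cell hands unequal fates to its daughters. In Notch signalling a ligand on one cell releases the intracellular part of the receptor on its neighbour, which then acts with Rbpj on target genes such as those of the Hes and Hey families. In muscle, Notch is known for holding satellite cells, the stem cells of the fibre, in quiescence.

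Numb (chromosome 12, 83794034 to 83921934, minus strand, GRCm38) had 19.1, 19.6 and 19.1 CPM in the tamoxifen libraries, against 23.6, 23.8 and 20.96 CPM in the vehicle libraries. The groups did not overlap. The difference of -0.24 ± 0.08 on the log2 scale (SE) missed the threshold of 0.05 (adjusted p = 0.187, edgeR quasi-likelihood test with Benjamini-Hochberg adjustment over all genes tested, the source of every adjusted p of a gene below). Numbl (chromosome 7, 27258433 to 27282144, plus strand) had 4.18, 5.26 and 3.86 CPM after tamoxifen, against 3.17, 3.86 and 2.70 CPM after vehicle, and the lowest tamoxifen library did not stand above the highest vehicle library. Its difference was 0.45 ± 0.19 (adjusted p = 0.28). In flox females, without the recombinase, Numb had 18.6, 18.4 and 16.4 CPM after tamoxifen, against 23.8, 19.99 and 20.9 CPM after vehicle. There Numb differed by -0.28 ± 0.10 (adjusted p = 0.452) and Numbl by 0.41 ± 0.16 (adjusted p = 0.498). The genotypes differed in their change by 0.04 ± 0.12 for Numb (adjusted p = 0.973) and 0.03 ± 0.24 for Numbl (adjusted p = 0.986). In transgene males Numb differed by 9.25e-05 ± 0.10 and Numbl by 0.34 ± 0.18. The deposited values count whole genes, so a deleted exon cannot be read from them, and exons of both genes overlap other annotated genes. Esr1, the oestrogen receptor gene to which reads of the Mer domains may also be assigned, had 953, 1432 and 402 CPM after tamoxifen, against 1177, 894 and 1059 CPM after vehicle (-0.17 ± 0.46 on the log2 scale, adjusted p = 0.901). In flox females it lay between 25.8 and 36.4 CPM in a separately scaled table, so all 6 transgene libraries stood above all 6 flox libraries.

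The 6 libraries held 31219445 to 39142101 counts. The first principal component, with 34.9% of the variance, placed the tamoxifen libraries between 12.4 and 32.8 and the vehicle libraries between -27.7 and -12.0. Within a group no pair of libraries agreed within counting error (chi-square over degrees of freedom, 22.7 to 85.1). Myh4, the fast myosin gene that marks such a muscle, took 4.91% to 7.11% of counts.

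Of 14211 genes tested, 187 passed the threshold, which is 1.32%, and 87 of them rose (0.612%) while 100 fell (0.704%). An unadjusted p under 0.05 was found for 2385 genes, 16.8% of those tested. The change was at least 2-fold for 59 genes, 31 higher and 28 lower. The median size of change of the called genes was 0.78 on the log2 scale, against 0.15 over all genes tested, and the smallest was 0.40. The groups did not overlap for any called gene, as was the case for 22.6% of all genes tested. The count depended on single libraries: it was 37 without vehicle library 902, 55 without 920, 61 without tamoxifen library 871 and 112 without 921. It was 180 without vehicle library 922 and 215 without tamoxifen library 919. With scaling by library totals alone 62.7% of calls were higher, against 46.5% with TMM. In whole muscle, fewer cells of a type and less RNA per cell cannot be told apart.

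**Figure D1:**
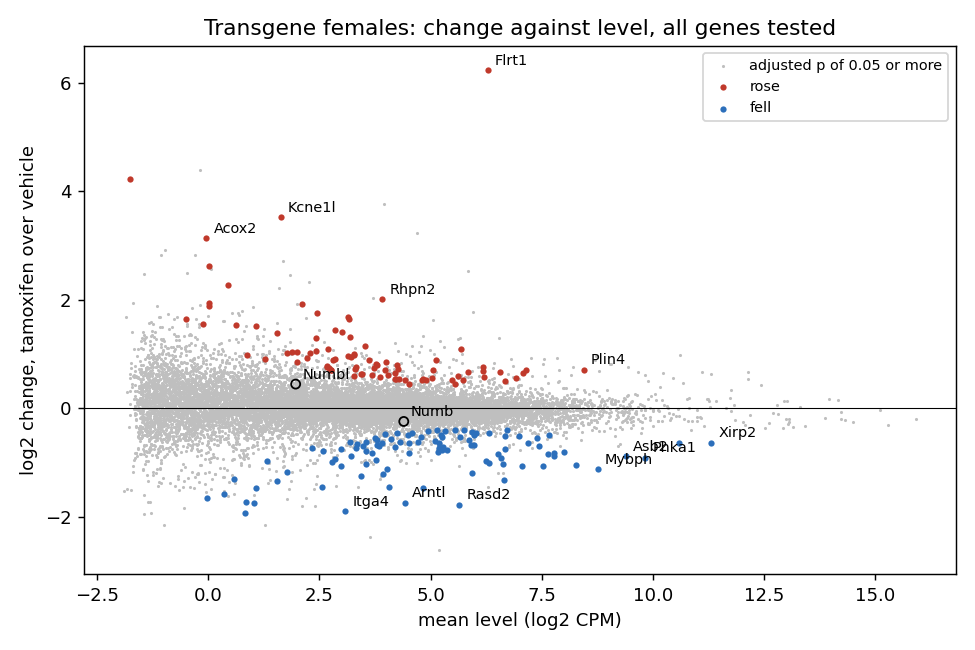
Log2 change (tamoxifen over vehicle, vertical axis) against mean level (log2 CPM, horizontal axis) for the 14211 genes tested in transgene females. Red points are the 87 genes that rose, blue points the 100 that fell, grey points the rest, and open circles mark Numb and Numbl; Flrt1 stands alone at 6.23.

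The largest rise was that of an adhesion gene. Flrt1 (chromosome 19, 7092001 to 7105729, minus strand), a fibronectin leucine-rich transmembrane protein known for cell adhesion and for binding FGF receptors, had 109.7, 188 and 165 CPM in tamoxifen muscle, against 1.21, 2.08 and 2.82 CPM in vehicle muscle. The lowest tamoxifen library thus lay far above the highest vehicle library, and the rise was 6.23 ± 0.37 on the log2 scale (adjusted p = 0.00416). With 1 library left out, the adjusted p lay between 0.00785 and 0.0402. Lrfn4 (chromosome 19, 4611785 to 4615667, minus strand), a leucine-rich adhesion protein of synapses, had 7.91, 7.37 and 9.51 CPM, against 2.42, 1.81 and 3.13 CPM in vehicle muscle. It rose by 1.76 ± 0.20 (adjusted p = 0.00786), a call that ended at 0.0505 without vehicle library 902. These 2 were the called members of a list of 10 tested genes of leucine-rich repeat adhesion proteins, whose median log2 change was 0.14, and the other 23 genes of that list lay below the count filter. Ptprd, a receptor tyrosine phosphatase that organises synapses, had 14.7, 11.1 and 12.7 CPM after tamoxifen, against 5.39, 4.70 and 5.46 CPM after vehicle. It rose by 1.31 ± 0.13 (adjusted p = 0.00503, 0.0076 to 0.0285 with 1 library left out).

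Rhpn2 (chromosome 7, 35334170 to 35392289, plus strand), which encodes a scaffold protein, had 19.8, 24.1 and 28.3 CPM in the tamoxifen libraries, against 6.63, 6.26 and 5.002 CPM in the vehicle libraries. Every tamoxifen library was above every vehicle library by a wide margin, and Rhpn2 rose by 2.01 ± 0.16 (adjusted p = 0.00295, 0.0047 to 0.0167 with 1 library left out). Its exons overlap those of Faap24. In the list of small GTPase regulators it was the 1 of 29 tested genes that rose, and Rasd2 was the 1 that fell, with a median log2 change of 0.00 over the list. Syt12, a member of the synaptotagmin family of vesicle proteins, had 5.62, 6.18 and 8.19 CPM, against 2.22, 1.57 and 1.53 CPM in vehicle muscle, and rose by 1.91 ± 0.21 (adjusted p = 0.00655, 0.0148 to 0.0343 with 1 library left out). Synj2, an inositol phosphatase that uncoats vesicles, had 68.1, 57.8 and 83.01 CPM, against 36.2, 26.7 and 35.1 CPM, and rose by 1.09 ± 0.16 (adjusted p = 0.0326). Both sets of values kept the groups apart, but the call of Synj2 was lost without any 1 of libraries 871, 902, 920 and 922, with an adjusted p of up to 0.108. Kcne1l, an accessory subunit of voltage-gated potassium channels, had 8.60, 4.88 and 3.01 CPM after tamoxifen, against 0.359, 0.594 and 0.46 CPM after vehicle. The tamoxifen libraries differed among themselves by more than 2-fold, and the rise of 3.52 ± 0.45 (adjusted p = 0.0206) lost its call without any 1 of libraries 902, 920 and 922 (up to 0.109). It was the 1 called gene of 22 tested potassium channel genes, whose median log2 change was 0.10.

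Tfcp2l1, a transcription factor of the CP2 family known from kidney ducts and pluripotent cells, had 10.04, 12.5 and 11.96 CPM in tamoxifen muscle, against 3.82, 4.91 and 4.27 CPM in vehicle muscle, a rise of 1.40 ± 0.14 (adjusted p = 0.0042). Map3k6, a kinase at the head of stress MAP kinase cascades, had 12.3, 8.09 and 10.7 CPM, against 3.53, 3.97 and 3.96 CPM, and rose by 1.44 ± 0.17 (adjusted p = 0.00777). Spsb1, a substrate receptor of a ubiquitin ligase, had 14.1, 17.8 and 15.7 CPM, against 6.56, 8.15 and 6.78 CPM, and rose by 1.15 ± 0.13 (adjusted p = 0.00677). The groups stayed apart in all of these, and each call held with any 1 library left out, at adjusted p of 0.0126 to 0.0266, 0.0076 to 0.046 and 0.0162 to 0.0442. Adcy1, an adenylyl cyclase that calcium stimulates, rose by 1.29 ± 0.21 (adjusted p = 0.0317), and Ogdhl, a relative of the oxoglutarate dehydrogenase of the citric acid cycle, rose by 1.39 ± 0.21 (adjusted p = 0.0235). The ubiquitin enzymes Hecw2, a HECT ligase, and Ube2t, a conjugating enzyme of the Fanconi anaemia pathway, rose by 1.05 ± 0.19 and 1.09 ± 0.19. Weakly counted genes among the 20 largest rises were Muc4, a membrane mucin, with 2.26 ± 0.39, Ccdc125 with 1.94 ± 0.31, Otoa, an inner ear protein, with 1.88 ± 0.31, and Hhipl1 with 1.52 ± 0.28. In each of these 8 the call was lost without at least 1 library, vehicle library 902 in every case, and the highest adjusted p lay between 0.108 (Ogdhl) and 0.156 (Hecw2).

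**Figure D2:**
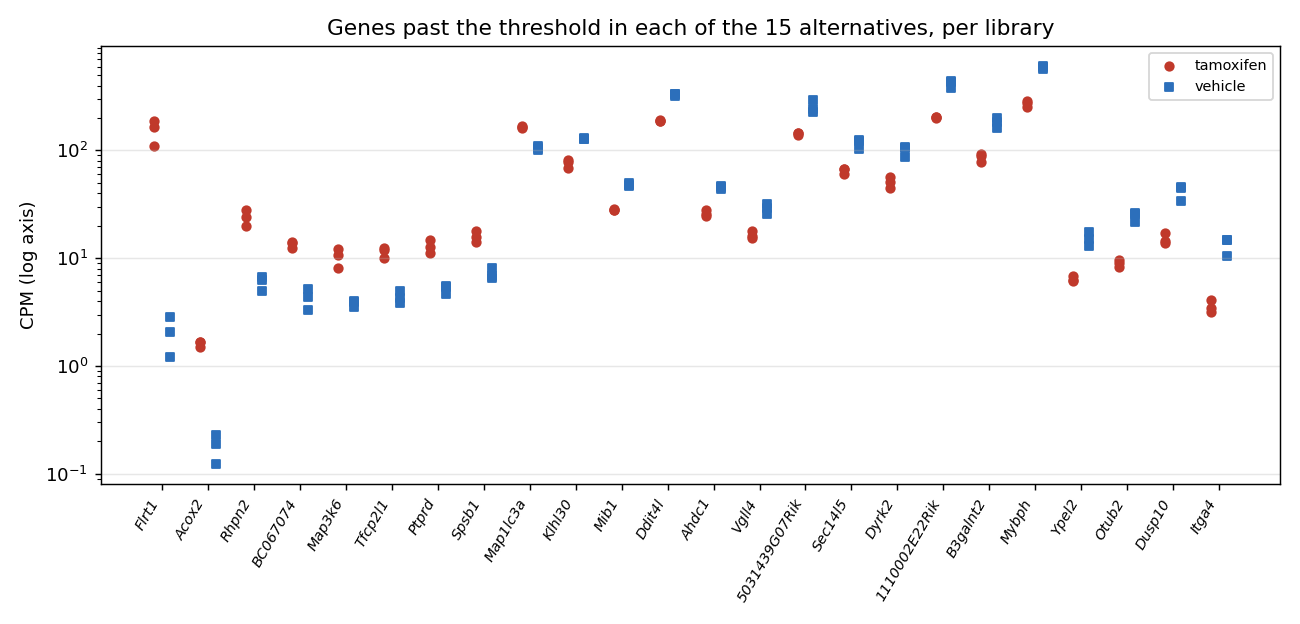
CPM per library (log axis) of the 24 genes past the threshold under each of the 15 alternative analyses, tamoxifen as red circles on the left of each gene and vehicle as blue squares on the right, ordered by log2 change. In every gene, as in all called genes, the 3 tamoxifen libraries lie on one side of the 3 vehicle libraries. The genes run from Flrt1 at the left, the largest rise, to Itga4 at the right, with a fall of 1.90 on the log2 scale.

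The largest fall among named genes was that of an integrin. Itga4 (chromosome 2, 79255426 to 79333123, plus strand), the alpha 4 subunit that binds fibronectin and VCAM1 and is known in myoblast fusion, had 3.41, 4.13 and 3.18 CPM after tamoxifen, against 14.7, 14.8 and 10.4 CPM after vehicle. All tamoxifen libraries were below all vehicle libraries, and it fell by 1.90 ± 0.17 on the log2 scale (adjusted p = 0.0039, 0.00289 to 0.0231 with 1 library left out). Its exons overlap those of Cerkl. It was the 1 called gene of 18 tested myogenic and satellite cell genes, which had a median log2 change of -0.04. Myod1, the myogenic factor with the next smallest p there, had 7.42, 11.4 and 8.89 CPM, against 15.3, 15.9 and 22.4 CPM, without a call at -0.96 ± 0.20 (adjusted p = 0.0689). Of 20 tested genes of other integrin subunits, 0 passed edgeR's test, with 2 at an unadjusted p under 0.05 and 0 by DESeq2 or limma-voom, and the median was -0.06.

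Dusp10 (chromosome 1, 184013302 to 184075636, plus strand), a phosphatase that inactivates the MAP kinases p38 and JNK, had 14.5, 16.98 and 13.96 CPM in tamoxifen muscle, against 44.9, 46.2 and 33.8 CPM in vehicle muscle. No library crossed between the groups, and Dusp10 fell by 1.46 ± 0.13 (adjusted p = 0.0039, 0.00238 to 0.0232 with 1 library left out). It was the 1 called gene of 17 tested MAP kinase phosphatase genes, whose median log2 change was -0.13. Rasd2, a small GTPase also called Rhes, had 19.1, 20.3 and 28.6 CPM, against 80.03, 89.00 and 63.7 CPM, and fell by 1.78 ± 0.19 (adjusted p = 0.013), a call that ended at 0.0554 without vehicle library 902. Pim1, a serine kinase, had 7.88, 11.2 and 8.50 CPM, against 17.3, 21.2 and 24.98 CPM, and fell by 1.20 ± 0.17 (adjusted p = 0.0249). Nim1k, a kinase related to AMPK, fell by 1.17 ± 0.18 (adjusted p = 0.0278). The calls of Pim1 and Nim1k were lost without any 1 of libraries 871, 920 and 921 and without any 1 of libraries 871, 902 and 920, with adjusted p of up to 0.0917 and 0.0912.

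Otub2, a deubiquitinating enzyme, had 8.20, 9.72 and 9.12 CPM in the tamoxifen libraries, against 25.8, 21.8 and 26.1 CPM in the vehicle libraries, and fell by 1.45 ± 0.11 (adjusted p = 0.00295, 0.0047 to 0.0133 with 1 library left out). B3galnt2, a glycosyltransferase that builds the sugar chain by which dystroglycan binds the matrix, had 77.9, 88.4 and 92.7 CPM, against 183, 201 and 160.0 CPM, and fell by 1.07 ± 0.11 (adjusted p = 0.0042, 0.0047 to 0.0266 with 1 library left out). In both genes the groups stood well apart. Dkk3, a Dickkopf relative that cells secrete, had 1.79, 1.75 and 1.35 CPM, against 3.10, 4.94 and 4.39 CPM, and fell by 1.34 ± 0.22 (adjusted p = 0.0326), and it was the 1 called gene of 21 tested genes for secreted muscle factors. That list had a median log2 change of 0.04. Its next smallest p was that of Gdf11, at -0.98 ± 0.25 (adjusted p = 0.119). In flox females Dkk3 differed by -2.19 ± 0.32 without a call (adjusted p = 0.0776). The difference between genotypes for Dkk3 was 0.85 ± 0.40 (adjusted p = 0.677). Other large falls were those of Ypel2 (-1.25 ± 0.13), Snph, which anchors mitochondria in axons (-1.58 ± 0.24), Nhs, an actin remodelling protein (-1.75 ± 0.31), Slc16a9, of the monocarboxylate transporter family (-1.45 ± 0.24), Lrrc30 (-1.31 ± 0.17), Fgd3, an exchange factor for Cdc42 (-1.31 ± 0.25), Tmem56 (-1.20 ± 0.18), Stc2, a stanniocalcin (-1.06 ± 0.19), and Lgals3bp, which binds galectin 3 (-1.02 ± 0.13). Of these 9 the call of Ypel2 held with any 1 library left out, and the others, like Dkk3, were lost in at least 1 of the 6 such fits, with adjusted p of up to 0.15 (Fgd3).

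Some called genes belong to the fibre's contractile and energy machinery, several of them among those with the most reads, and the following fell. Mybph (chromosome 1, 134193448 to 134201232, plus strand), the thick filament protein myosin-binding protein H, had 252, 276 and 290.2 CPM after tamoxifen, against 609, 599 and 572 CPM after vehicle, and fell by 1.12 ± 0.09 (adjusted p = 0.00295, 0.0047 to 0.0205 with 1 library left out). Xirp2, an actin-binding protein of the Z-disc region, had 2081, 1952 and 1991 CPM, against 3042, 2863 and 3428 CPM, and fell by 0.63 ± 0.10 (adjusted p = 0.03). In both genes the replicates lay close together and the groups apart. Mical2, which oxidises actin, fell by 0.82 ± 0.13, and Smtnl2, of the smoothelin family, by 0.88 ± 0.12. Xirp2 was the 1 called gene of 35 tested sarcomere and costamere genes (2.86%, against 1.32% of all genes tested). Their median log2 change was -0.05. Mrln, whose micropeptide myoregulin inhibits the calcium pump SERCA, had 27.8, 33.6 and 30.6 CPM, against 57.5, 54.6 and 43.5 CPM, and fell by 0.76 ± 0.12 (adjusted p = 0.0275). It was the 1 called gene of 25 tested calcium handling genes (4%, against 1.32% of all genes tested), with a median of -0.14.

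Among energy genes, Phka1 (chromosome X, 102513975 to 102644246, minus strand), the muscle form of a phosphorylase kinase subunit that triggers glycogen breakdown, had 529.9, 664 and 699.7 CPM in tamoxifen muscle, against 1184, 1408 and 968 CPM in vehicle muscle. Each tamoxifen library was below each vehicle library, and it fell by 0.91 ± 0.16 (adjusted p = 0.0354). Prkag3, the AMPK subunit found mainly in fast muscle, had 99.2, 144 and 116 CPM, against 274, 275 and 198 CPM, and fell by 1.06 ± 0.17 (adjusted p = 0.0389). Ampd1, the AMP deaminase of muscle, had 1182, 1327 and 1082 CPM, against 1981, 1934 and 1679 CPM, and fell by 0.64 ± 0.11 (adjusted p = 0.0353). These 3 enzymes act on the fuel and adenine nucleotide balance of the working fibre. Phka1 was the 1 called gene of 31 tested gene IDs of glycolysis and glycogen (3.23%, against 1.32% of all genes tested). Their median was -0.10. Asb2, a ubiquitin ligase subunit that targets filamins, fell by 0.88 ± 0.13 (adjusted p = 0.0232). Ddit4l, an inhibitor of the growth kinase complex mTORC1, had 186, 193 and 187 CPM, against 317, 332 and 335 CPM, and fell by 0.80 ± 0.08 (adjusted p = 0.0039, 0.0098 to 0.0261 with 1 library left out). Of these contractile and energy genes, Mybph and Ddit4l kept their call with any 1 library left out. The calls of Xirp2, Mrln, Phka1, Prkag3, Ampd1, Asb2, Mical2 and Smtnl2 were lost without vehicle library 902 and without 920, with adjusted p of up to 0.151 (Ampd1). All of these but Asb2 and Smtnl2 were also lost without tamoxifen library 871 and without 921. Asb2 was lost without 921 too, Xirp2 without vehicle library 922 and Phka1 without tamoxifen library 919. With the summed level of slow fibre genes as a covariate, added after the data were seen, Mybph, Ddit4l, Xirp2, Prkag3, Asb2, Mical2 and Smtnl2 stayed past the threshold. Under it Phka1 had a log2 change of -0.70 (adjusted p = 0.0613), Mrln -0.63 (adjusted p = 0.0512) and Ampd1 -0.54 (adjusted p = 0.0775).

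Clock genes changed in both directions. In the circadian clock, Arntl (also called Bmal1) pairs with Clock or Npas2 on E-boxes to drive the Per and Cry repressors and output genes, while Rev-erb and ROR receptors set Arntl itself through ROR elements. Arntl (chromosome 7, 113207465 to 113314126, plus strand) had 6.53, 12.3 and 10.8 CPM after tamoxifen, against 38.3, 31.2 and 29.1 CPM after vehicle. Every tamoxifen library lay far below the lowest vehicle library, and Arntl, whose exons overlap Gm45355, fell by 1.74 ± 0.24 (adjusted p = 0.0353). Ciart (chromosome 3, 95878503 to 95882251, minus strand), a repressor of the activator pair, had 17.3, 9.63 and 12.9 CPM, against 2.78, 4.48 and 5.09 CPM, and rose by 1.69 ± 0.28 (adjusted p = 0.0472). Cry1 (chromosome 10, 85131700 to 85185064, minus strand), a repressor, had 12.1, 9.66 and 11.03 CPM, against 16.8, 15.6 and 15.7 CPM, and fell by 0.55 ± 0.11 (adjusted p = 0.0481). Thus 1 of 16 tested core clock genes rose and 2 fell (18.8% called, against 1.32% of all genes tested), with a median log2 change of 0.07. Per2, Per3 and Npas2 did not pass, at 2.02 ± 0.60 (adjusted p = 0.204), 0.90 ± 0.18 (adjusted p = 0.0651) and -1.24 ± 0.30 (adjusted p = 0.0932).

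Of 12 tested clock output genes 2 rose and 1 fell (25% called), with a median log2 change of 0.09. Tspan4, a tetraspanin, had 13.6, 11.4 and 11.3 CPM in tamoxifen muscle, against 6.17, 6.13 and 6.44 CPM in vehicle muscle, and rose by 0.95 ± 0.11 (adjusted p = 0.0085). Hlf, a transcription factor of the PAR family, had 18.1, 14.5 and 14.5 CPM, against 7.45, 10.4 and 7.64 CPM, and rose by 0.88 ± 0.15 (adjusted p = 0.0353). Bhlhe40, a repressor also called Dec1, had 154, 176 and 177 CPM, against 217, 251 and 246 CPM, and fell by 0.49 ± 0.09 (adjusted p = 0.047). The groups did not overlap in these 3. All of the clock calls were lost in at least 1 of the fits with 1 library left out, those of Cry1 and Bhlhe40 in each of the 6, and the highest adjusted p were 0.109 for Arntl, 0.152 for Ciart, 0.18 for Cry1, 0.052 for Tspan4, 0.137 for Hlf and 0.147 for Bhlhe40. In flox females 2 core clock genes and 1 clock output gene were called, beside 0.131% of all genes tested there. In transgene males 0 genes of either list were called, beside 0.889% of all genes tested there. The hour of dissection is not given in the labels.

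Promoter windows of 4 of the 6 called clock genes are shown, those that held letters that clock factors bind, so they were chosen for the match. The window of Hlf held neither motif. No window was found for Bhlhe40, so its promoter was not searched. They come from RefSeq (GRCm38.p6), are written 5′ to 3′ on the gene's strand and have the motif in capitals. The E-box CACGTG begins 116, 58 and 44 bases before the start in Ciart (chr3:95882259-95882358, minus strand), 60 bases before it in Cry1 (chr10:85185085-85185144, minus strand) and 51 bases before a start of Tspan4 (chr7:141476290-141476349, plus strand). The core of the ROR element, TAGGTCA, begins 30 bases after a start of Arntl (chr7:113207529-113207558, plus strand).
Ciart: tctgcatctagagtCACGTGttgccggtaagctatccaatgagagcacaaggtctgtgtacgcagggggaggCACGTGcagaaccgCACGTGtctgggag
Cry1: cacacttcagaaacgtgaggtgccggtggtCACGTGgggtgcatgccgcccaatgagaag
Tspan4: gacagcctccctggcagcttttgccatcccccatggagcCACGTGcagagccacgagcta
Arntl: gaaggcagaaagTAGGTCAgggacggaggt
Windows of 300 bases, 250 before each start and 50 from it on, were found for 145 of the 187 called genes and searched on both strands. The E-box stood in 22.7% of 66 genes that rose and in 15.2% of 79 that fell, against 11.7% of 10427 tested genes and 8.09% of all 27025 genes of the table. The ROR core stood in 4.55% of those that rose and in 3.8% of those that fell, against 2.22% of tested genes and 2.97% of all. The D-box TTANGTAA, bound by Hlf and its relatives, stood in 0 of the genes that rose and in 2.53% of those that fell, against 1.75% of tested genes and 2.72% of all. A match describes letters and does not show binding.

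**Figure D3:**
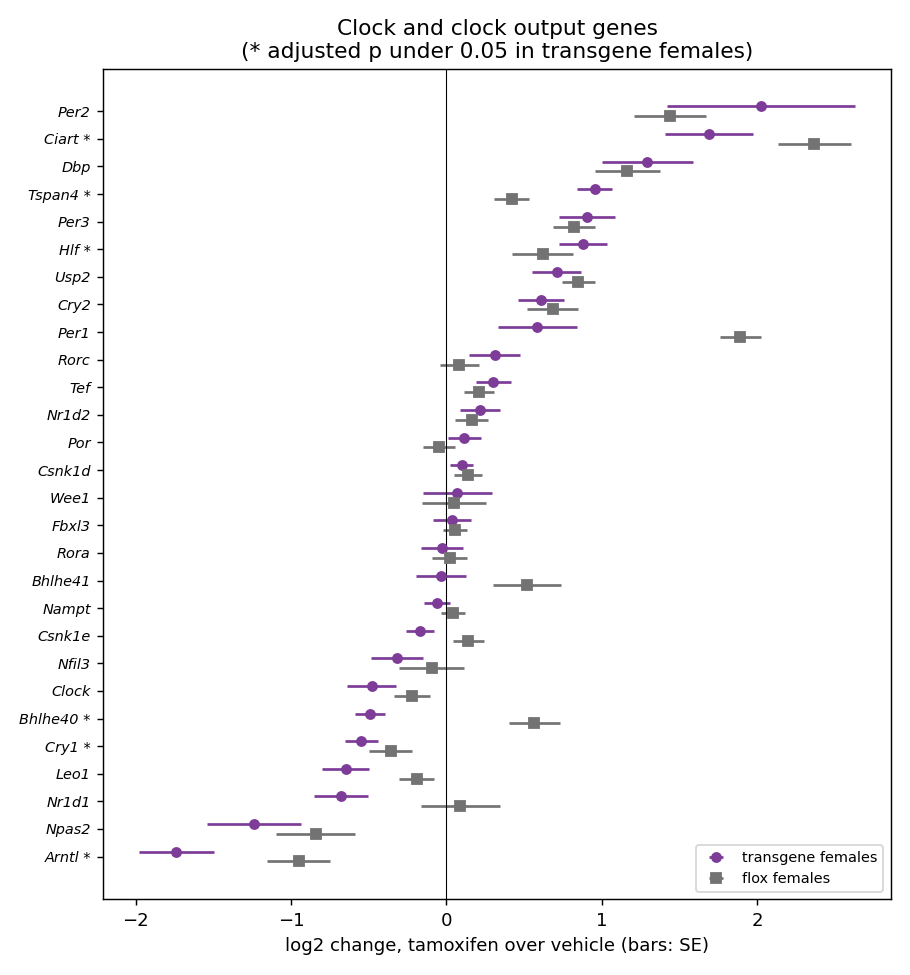
Log2 change (tamoxifen over vehicle, horizontal axis, with bars of 1 SE) of core clock and clock output genes in transgene females (purple circles) and in flox females (grey squares), ordered by the change in transgene females. Stars mark the 6 genes past the threshold in transgene females; Ciart lies at 1.69 and 2.37 and Arntl at -1.74 and -0.95 in transgene and flox females.

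Of 32 tested Numb partners and endocytic adaptors 1 rose and 0 fell (3.12% called, against 1.32% of all genes tested, which 1 gene decides), with a median log2 change of 0.01. Picalm, a clathrin adaptor that also recruits cargo for uptake, had 153, 125 and 158 CPM in the tamoxifen libraries, against 92.4, 101.1 and 103 CPM in the vehicle libraries, and rose by 0.56 ± 0.10 (adjusted p = 0.0403), a call lost without any 1 of libraries 871, 902, 920, 921 and 922 (up to 0.174). Of 31 tested Notch pathway genes 0 passed edgeR's test, with a median of 0.05. At an unadjusted p under 0.05 there were 5, and DESeq2 called 1 and limma-voom 0. The groups did not overlap in 2 higher and 3 lower genes, beside 11% and 11.6% of all genes tested. Lfng, a glycosyltransferase that tunes Notch for its ligands, had 3.39, 4.13 and 3.15 CPM, against 1.96, 2.37 and 1.96 CPM, a difference of 0.76 ± 0.18 (adjusted p = 0.0847). Notch1, a receptor, had 25.9, 25.9 and 24.6 CPM, against 21.1, 20.1 and 22.3 CPM, a difference of 0.27 ± 0.08 (adjusted p = 0.134). For both the groups stood apart without a call. Mib1, an E3 ligase that drives the uptake of Notch ligands and was not in that list, is named after its values were seen. It had 27.9, 28.6 and 28.03 CPM after tamoxifen, against 49.99, 47.8 and 46.4 CPM after vehicle, and fell by 0.77 ± 0.07 (adjusted p = 0.0039), in a call that held under all 15 alternatives. In flox females, without the recombinase, Mib1 had 35.6, 31.7 and 31.7 CPM, against 71.6, 40.5 and 49.5 CPM. Its change there was -0.71 ± 0.20 (adjusted p = 0.402), and the difference between genotypes was -0.06 ± 0.22 (adjusted p = 0.974). Septins, a family of filament-forming GTPases, had 0 calls among 11 tested genes in edgeR's test, 2 at an unadjusted p under 0.05, 0 by DESeq2 and limma-voom, and a median of 0.31. Sept11 differed by 0.42 ± 0.13 (adjusted p = 0.152) and Sept4 by -0.27 ± 0.10 (adjusted p = 0.221).

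Of 28 tested atrophy and autophagy genes 2 rose and 0 fell (7.14% called, against 1.32% of all genes tested), with a median log2 change of -0.01. Map1lc3a, a coat protein of autophagosomes, had 169, 165 and 161 CPM after tamoxifen, against 109, 105 and 102 CPM after vehicle, and rose by 0.65 ± 0.07 (adjusted p = 0.00677, 0.0158 to 0.0447 with 1 library left out). Foxo3, a transcription factor of atrophy and autophagy genes, had 53.4, 49.7 and 59.4 CPM, against 39.97, 39.2 and 40.6 CPM, and rose by 0.44 ± 0.08 (adjusted p = 0.0417), a call lost without any 1 of libraries 871, 902, 920, 921 and 922 (up to 0.171). Replicates of Map1lc3a spanned a narrow range in each group. Of 26 tested heat shock and chaperone genes 2 fell and 0 rose (7.69% called), with a median of -0.07. Hsph1, a large cytosolic chaperone of the HSP110 family, had 42.4, 61.3 and 53.6 CPM, against 112, 87.5 and 118 CPM, and fell by 1.01 ± 0.16 (adjusted p = 0.0353). Chordc1, an HSP90 cochaperone, had 34.3, 33.9 and 34.5 CPM, against 46.9, 42.96 and 46.6 CPM, and fell by 0.41 ± 0.07 (adjusted p = 0.0353). No library crossed between the groups in either gene, but the call of Hsph1 was lost without any 1 of libraries 871, 902, 921 and 922 and that of Chordc1 without any 1 library, with adjusted p of up to 0.137 and 0.147. Of 31 tested proteasome genes and 22 of the unfolded protein response 0 passed edgeR's test, with medians of 0.03 and 0.08. At an unadjusted p under 0.05 there were 1 and 4, DESeq2 called 0 and 1, and limma-voom 0 in both. In these lists Psmb3 differed by 0.24 ± 0.08 (adjusted p = 0.184) and Trib3, a pseudokinase of the stress response, by 1.16 ± 0.26 (adjusted p = 0.0706).

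The windows of both called chaperone genes are shown with the core of the heat shock element, GAANNTTC, the letters that the factor Hsf1 binds, in capitals. They come from RefSeq (GRCm38.p6) and are written 5′ to 3′ on the gene's strand. In Hsph1 the core begins 20 bases after a start (chr5:149636278-149636307, minus strand), and in Chordc1 a copy begins 4 bases before the start and another 6 bases after it (chr9:18292259-18292288, plus strand).
Hsph1: ctgcagattctgGAAAGTTCtcctcagtag
Chordc1: accgGAACGTTCggGAAAATTCctgaagca
Searched on both strands, the core stood in 10.1% of 79 genes that fell and in 4.55% of 66 that rose, against 7.02% of tested genes and 9.04% of all genes of the table, so the called genes lay near the background.

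Slow fibre genes spread widely among replicates. Of 15 tested 0 passed edgeR's test, 1 had an unadjusted p under 0.05, the median log2 change was 0.68 and 14 of 15 were positive, against a median of 0.01 over all genes tested. Their summed level was 8856, 4054 and 8298 CPM after tamoxifen, against 3967, 1357 and 7099 CPM after vehicle. The groups overlap, since tamoxifen library 919 lay below vehicle library 922. Sln, a peptide inhibitor of the calcium pump, had 100.01, 20.6 and 19.5 CPM, against 4.67, 2.40 and 8.04 CPM (3.22 ± 0.95, adjusted p = 0.213), and Casq2, the calsequestrin of slow and cardiac muscle, had 169, 119.8 and 147 CPM, against 80.7, 37.7 and 115 CPM (0.90 ± 0.42, adjusted p = 0.376). With log2 of that sum as a covariate, 103 genes passed and 71 of the 187 were among them. Of 62 called genes named by the rule, 33 stayed past the threshold and all 62 kept their sign. The 29 others had adjusted p of up to 0.158, with log2 changes of 0.755 to 1.11 times those without the covariate. They were Arntl, Ciart, Cry1, Bhlhe40, Picalm, Foxo3, Hsph1, Plin4, S100a9, Kcne1l, Rasd2, Pim1, Nim1k, Dkk3, Phka1, Mrln, Ampd1, Narf, Fgd3, Hecw2, Ube2t, Hhipl1, Muc4, Otoa, Ogdhl, Nhs, Slc16a9, Snph and Stc2. Among the clock genes Arntl had -1.64 (adjusted p = 0.108), Ciart 1.52 (adjusted p = 0.158) and Cry1 -0.61 (adjusted p = 0.0704), and Picalm had 0.50 (adjusted p = 0.108). Of 15 tested fast fibre genes 0 passed edgeR's test and 2 had an unadjusted p under 0.05, with a median of -0.21. Actn3, the actinin of fast fibres, differed by -0.32 ± 0.11 (adjusted p = 0.208), and Atp2a1, the fast calcium pump, by -0.30 ± 0.11 (adjusted p = 0.216). Among 39 nuclear genes of oxidative phosphorylation 0 passed, 2 had an unadjusted p under 0.05 and 37 were positive, with a median of 0.13. Among 32 genes of fatty acid uptake and oxidation 0 passed and 5 had an unadjusted p under 0.05, with a median of 0.14. Ppargc1a, the coactivator of mitochondrial genes, had 68.1, 46.2 and 100.9 CPM, against 27.5, 31.1 and 29.2 CPM (1.29 ± 0.28, adjusted p = 0.105). The 7 tested mitochondrially encoded genes had 0 calls, 0 at an unadjusted p under 0.05 and a median of 0.14. In these 5 lists DESeq2 called 1 slow fibre gene and 1 fatty acid gene, and limma-voom 0.

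**Figure D4:**
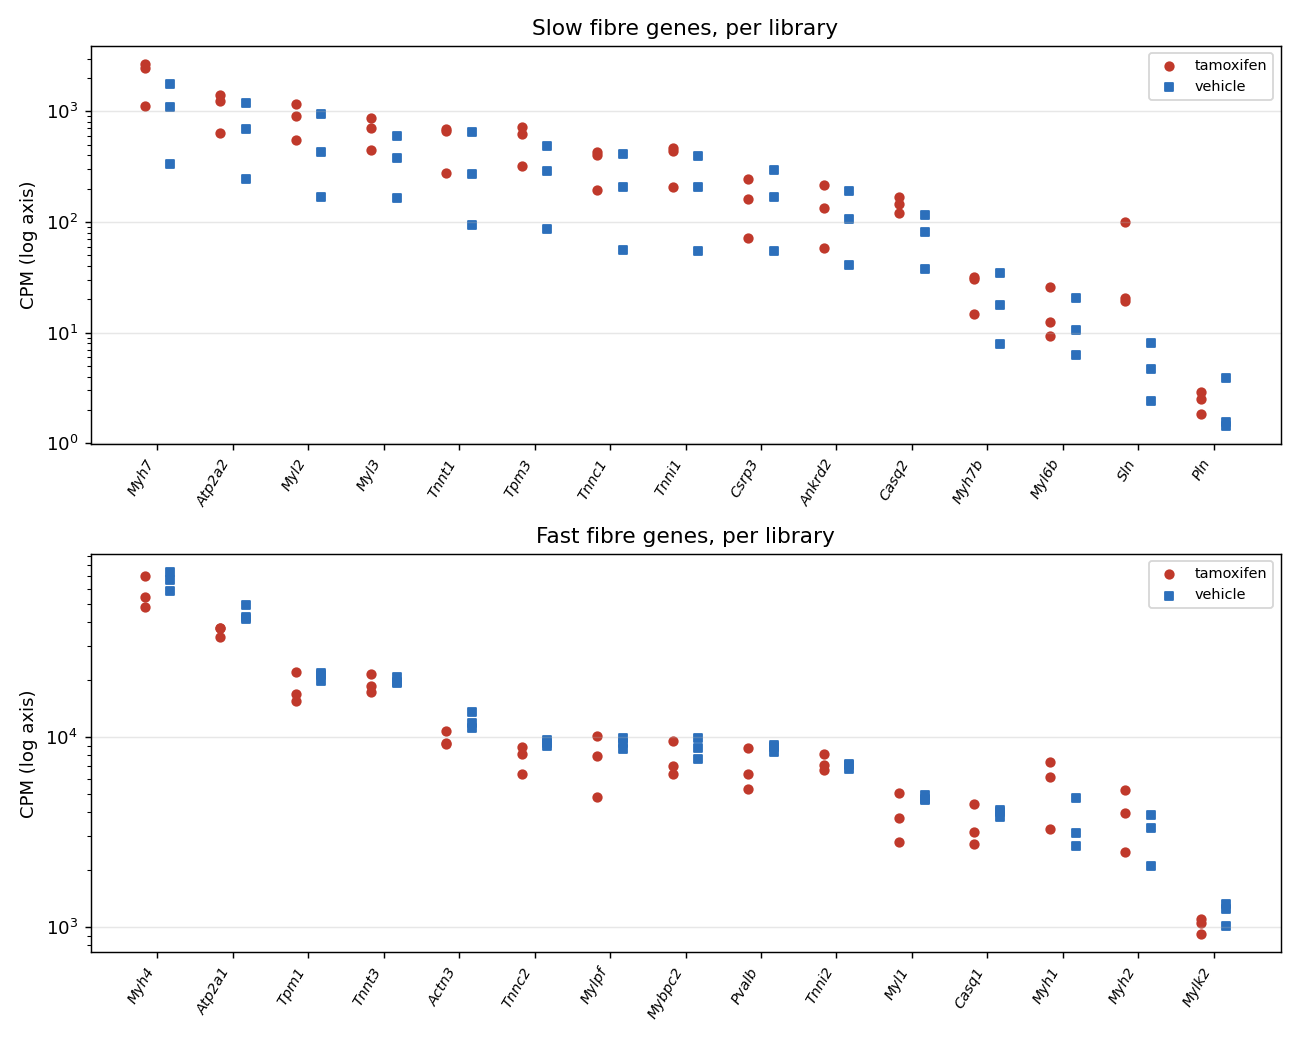
CPM per library (log axis) of slow fibre genes (upper panel) and fast fibre genes (lower panel), tamoxifen as red circles on the left of each gene and vehicle as blue squares on the right. The slow fibre genes spread widely within each group, with summed levels of 4054 to 8856 CPM after tamoxifen and 1357 to 7099 CPM after vehicle, while fast fibre genes lie close together.

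Interferon response genes had lower values in tamoxifen muscle, and none was called by edgeR. All 25 tested members had a negative log2 change, with a median of -0.72, 9 had groups that did not overlap (11.6% of all genes tested did so in that direction), and 0 passed. At an unadjusted p under 0.05 there were 14 of the 25, against 16.8% of all genes tested, DESeq2 called 6 and limma-voom 0. Stat2, a transcription factor of type I interferon signalling, had 6.41, 6.84 and 6.73 CPM after tamoxifen, against 12.8, 8.50 and 10.4 CPM after vehicle (-0.67 ± 0.15, adjusted p = 0.0739). Oas2, an antiviral enzyme that senses double-stranded RNA, had 2.70, 2.44 and 2.03 CPM, against 4.31, 3.64 and 3.71 CPM (-0.70 ± 0.17, adjusted p = 0.0934). The summed level of the list was 114, 129 and 129 CPM after tamoxifen, against 276, 143 and 179.7 CPM after vehicle, so that vehicle library 902 stood highest and no library crossed between the groups. In flox females the list had a median log2 change of -0.19. In transgene males its median was 0.15, of the opposite sign, and 0 members were called in either comparison.

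Genes that hormones and growth factors control gave 0 calls in edgeR's test in 4 lists. The median log2 change was -0.16 over 19 genes of the oestrogen and androgen response, 0.20 over 17 of the glucocorticoid response, 0.07 over 25 of IGF and insulin signalling and 0.14 over 20 immediate early genes. Smox, spermine oxidase, differed by -0.48 ± 0.10 (adjusted p = 0.0522), Azin1, which regulates polyamine synthesis, by -0.37 ± 0.08 (adjusted p = 0.0585) and Igf1r, the IGF receptor, by 0.59 ± 0.12 (adjusted p = 0.0589). Tsc22d3, a glucocorticoid target also called Gilz, differed by 0.37 ± 0.11 (adjusted p = 0.147). In the order of the medians, 12 of 19, 5 of 17, 7 of 25 and 2 of 20 had an unadjusted p under 0.05, against 16.8% of all genes tested. DESeq2 called 5 oestrogen and androgen genes, 1 IGF gene and 1 immediate early gene, and limma-voom 1 oestrogen and androgen gene. In 5 further lists edgeR's test also gave 0 calls, with medians of 0.23 over 17 neuromuscular junction genes, 0.19 over 18 amino acid transporters, -0.23 over 16 p53 targets, 0.07 over 34 extracellular matrix genes and -0.09 over 21 genes of cholesterol synthesis. In that order, 7, 7, 5, 2 and 4 had an unadjusted p under 0.05, DESeq2 called 2, 3, 2, 0 and 1, and limma-voom 0 in each. Their smallest p were those of Srebf1, a transcription factor of lipid synthesis (-0.41 ± 0.09, adjusted p = 0.0677), and Slc1a5, a glutamine transporter (0.69 ± 0.15, adjusted p = 0.0706).

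Markers of other cells in the muscle gave 2 calls. S100a9, a calcium-binding protein of neutrophils, had 2.46, 1.55 and 2.50 CPM in tamoxifen muscle, against 0.718, 0.81 and 0.706 CPM in vehicle muscle, and rose by 1.54 ± 0.26 (adjusted p = 0.0347). It was the 1 called gene of 13 tested leukocyte markers, whose median log2 change was -0.29 and whose summed level was 39.7, 39.5 and 36.5 CPM after tamoxifen, against 33.1, 65.7 and 27.1 CPM after vehicle. Plin4, a coat protein of lipid droplets in fat and muscle cells, had 416, 366 and 514 CPM, against 292, 252 and 246 CPM, and rose by 0.71 ± 0.13 (adjusted p = 0.0421). It was the 1 called gene of 14 tested adipocyte markers, with a median of 0.45 and 13 positive. Their summed level was 4739, 7554 and 5992 CPM after tamoxifen, against 4503, 3796 and 4375 CPM after vehicle, without overlap between the groups. The part of fat and other cells in the other results was not tested. Ucp1, the uncoupling protein of brown fat and a member of that list, had 1.11, 2.80 and 0.732 CPM after tamoxifen, against 0, 0.081 and 0.123 CPM after vehicle, without a call (adjusted p = 0.0526). The calls of S100a9 and Plin4 were lost without any 1 of libraries 871, 902, 920, 921 and 922, with adjusted p of up to 0.129 and 0.144. The 6 tested blood markers had 0 calls in edgeR's test and a median of 1.02, with sums of 173, 499 and 334 CPM after tamoxifen, against 123, 163 and 225 CPM after vehicle. Of the remaining markers 0 passed, and medians were 0.68 over 13 tendon genes, 0.33 over 12 Schwann cell genes, 0.09 over 10 smooth muscle genes, 0.05 over 13 endothelial genes, -0.10 over 15 fibroblast genes and -0.21 over 8 fibre genes. In the order blood, tendon, Schwann cell, smooth muscle, endothelial, fibroblast and fibre, 1, 2, 1, 0, 2, 0 and 3 had an unadjusted p under 0.05. DESeq2 called 2 leukocyte, 3 adipocyte and 1 endothelial marker and none of the others, and limma-voom called 0 in all of these marker lists.

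The same tamoxifen comparison in flox females, which lack the recombinase, gave 19 calls among 14539 genes (0.131%), 14 higher (0.0963%) and 5 lower (0.0344%). Calls shared with the same sign numbered 4, which is 2.14% of the 187 and 21.1% of the 19: Ciart, Ccdc125, Slc25a33, a mitochondrial carrier of pyrimidine nucleotides, and Miga2, a protein of mitochondrial fusion. The 19 were 3 to 87 with 1 flox library left out, 4 with scaling by library totals and 143 with DESeq2, and the shared count rests on them. Slc25a33 had 23.4, 21.3 and 22.5 CPM after tamoxifen in transgene females, against 14.01, 15.3 and 13.7 CPM after vehicle, and 18.97, 19.9 and 18.9 CPM in flox females, against 9.14, 11.3 and 9.86 CPM. Miga2 had 23.01, 22.8 and 22.2 CPM, against 32.6, 32.6 and 32.6 CPM, in transgene females, and 23.3, 24.9 and 20.98 CPM, against 34.6, 37.02 and 35.8 CPM, in flox females. Both genes thus showed separate groups in each genotype, which in transgene females held for every called gene. Of 186 members tested in both, 154 (82.8%) had the same sign in flox females, against 60.8% of 13886 genes tested in both. The median log2 change there was 0.29 for the genes that rose in transgene females and -0.27 for those that fell.

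Whether transgene females responded otherwise than flox females was tested in 1 fit over the 12 female libraries. In edgeR's test 0 of 15182 genes passed, with 1145 at an unadjusted p under 0.05, of which 127 were among the 187 members; DESeq2 called 43 genes and limma-voom 0. For 180 of the 187 the difference had the sign of the transgene change. Both counts over the members use the libraries that chose them and are not independent evidence of a difference. Flrt1 had 41.2, 8.11 and 50.9 CPM in the flox tamoxifen libraries, against 0.958, 2.11 and 1.42 CPM in the flox vehicle libraries. The flox groups did not overlap either, and their log2 change of 4.48 ± 0.92 (adjusted p = 0.368) differed from the transgene change by 1.75 ± 1.01 (adjusted p = 0.781). Rhpn2 had 32.5, 17.8 and 23.5 CPM, against 11.1, 10.8 and 8.63 CPM, in flox females, and its difference between genotypes was 0.73 ± 0.30 (adjusted p = 0.605). Lrfn4 had 4.64, 5.37 and 5.39 CPM, against 2.10, 4.70 and 20.9 CPM, in flox females, a change of -0.85 ± 0.93, opposite in sign. Syt12 had 5.27, 2.61 and 2.84 CPM, against 1.37, 1.87 and 6.59 CPM, there (0.11 ± 0.70). Their differences between genotypes were 2.61 ± 0.99 (adjusted p = 0.598) and 1.80 ± 0.76 (adjusted p = 0.642). Kcne1l had 0.384, 0.537 and 0.236 CPM, against 0.207, 1.07 and 0.313 CPM, in flox females, with overlapping groups and a difference between genotypes of 3.97 ± 0.85 (adjusted p = 0.339). Phka1 had 1309, 953 and 985 CPM, against 960.0, 1062 and 1030.0 CPM, in flox females, with overlapping groups and a difference of -1.002 ± 0.21 (adjusted p = 0.335). Bhlhe40 had a flox change of 0.57 ± 0.17, opposite in sign, and a difference of -1.06 ± 0.20 (adjusted p = 0.292). Since the 2 genotypes lie in separate tables, table and genotype cannot be told apart in this contrast.

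In transgene males, in other libraries of the same genotype, 139 of 15628 genes were called (0.889%), 80 higher (0.512%) and 59 lower (0.378%), and 20 calls were shared with the same sign, which is 10.7% of the 187 and 14.4% of the 139. This fit held all 12 males and took its spread from the flox males titled WT too, unlike the fit of 6 libraries behind the 187. The 6 transgene males alone gave 27 calls. Of 184 members tested in both, 150 (81.5%) had the same sign, against 56.8% of 13743 genes, and the medians were 0.39 for members that rose and -0.25 for those that fell. The treatment field of the male vehicle libraries reads tamoxifen while their titles read vehicle, and they were grouped by title. Flrt1 had 171, 289 and 273 CPM in the male tamoxifen libraries, against 3.32, 3.73 and 3.81 CPM in the libraries titled vehicle (6.08 ± 0.20, adjusted p = 5.29e-09). Rhpn2 had 17.7, 19.4 and 29.3 CPM, against 2.21, 3.11 and 2.40 CPM (3.10 ± 0.26, adjusted p = 0.000311). Mib1 had 44.2, 74.1 and 48.96 CPM, against 96.7, 129.7 and 172 CPM (-1.25 ± 0.23, adjusted p = 0.0319). All 3 moved as in females, and so did Lrfn4 (2.09 ± 0.21), Syt12 (2.50 ± 0.30), Dkk3 (-4.27 ± 0.45), Plin4 (0.92 ± 0.16) and Smtnl2 (-0.80 ± 0.17), each past the threshold. Stc2 was called in the opposite direction, at 1.83 ± 0.37 (adjusted p = 0.0387), against -1.06 ± 0.19 in females. Mybph had 189.7, 51.1 and 219 CPM, against 40.3, 42.01 and 27.6 CPM, in males, opposite in sign at 2.06 ± 0.58 and without a call (adjusted p = 0.206). Tfcp2l1 had 18.3, 19.4 and 14.97 CPM, against 21.3, 25.2 and 32.2 CPM, in males. It was also opposite in sign, at -0.58 ± 0.14, and without a call (adjusted p = 0.0903). The difference between the sexes was not tested.

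**Figure D5:**
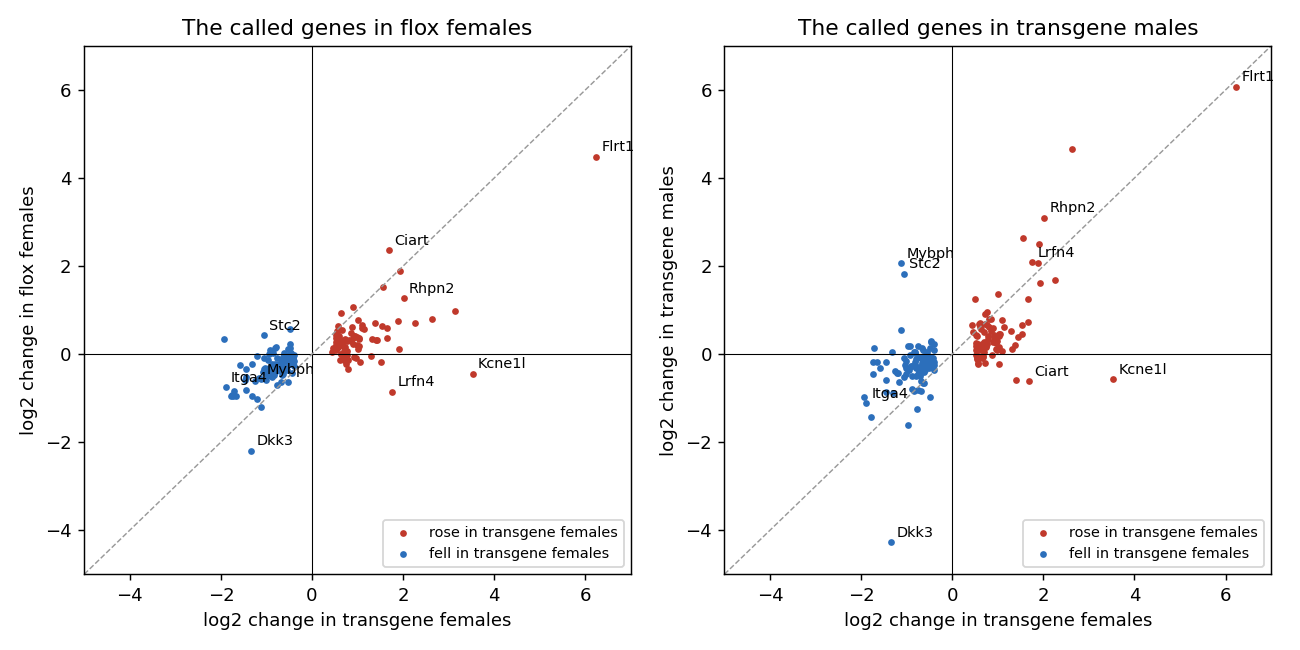
Log2 change (tamoxifen over vehicle) of the called genes in transgene females (horizontal axes) against that in flox females (left) and transgene males (right). Red points rose and blue points fell in transgene females, the dashed line marks equal change, and 154 of 186 points on the left and 150 of 184 on the right have the same sign on both axes.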

How the data were processed

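RNA was extracted from frozen gastrocnemius with Trizol and Qiagen columns, per the labels' protocols. The authors deposited raw counts of reads per Ensembl gene ID in 3 tables; STAR, featureCounts, limma, GRCm38 and mm10 are named in the submitters' processing notes, without roles. The sources used here do not give the kit, strand setting, treatment of multimapping reads or annotation release, so counts of overlapping genes and near-identical copies are uncertain. Symbols were matched for 54723 of 54752 IDs with GENCODE M21.

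Tests used R 4.3.3 and edgeR 4.0.16: TMM scaling, filterByExpr (minimum count 10, minimum total 15), robust quasi-likelihood F-tests, and Benjamini-Hochberg adjustment with a threshold of 0.05. Transgene and flox females were fitted on the 6 libraries of their own table, the genotype difference on all 12 female libraries, and transgene males with all 12 males. The SE is the size of the log2 change divided by the square root of F. CPM are scaled within each fit. The code was tested on simulated data. Alternatives were RLE or no scaling, other filters, DESeq2 1.42.0, limma-voom (limma 3.58.1), other sample sets and leaving out each library.

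Members and gene lists were chosen with earlier results of these data known. Named genes were Numb, Numbl and Esr1; the 20 largest rises and 20 largest falls among called genes at or above a mean log2 CPM of 0, with an established symbol and groups that do not overlap; the 15 most abundant called genes; every called member of the 43 lists; and the members of smallest p of lists without a call. Promoter motifs and other genes named were chosen after their values were seen, and some genes of the rule are not described.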

Additional observations from a re-analysis of the deposited data

How the results depend on the processing

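For tamoxifen against vehicle in transgene females, the count of 187 stayed within 1.5 times under other scaling (188 with RLE, 193 with library totals alone), a filter at 1 CPM (187), limma-voom (146) and non-robust estimates (158). It was 941 with no filter beyond a total count of 1, 679 with DESeq2, 417 with all 12 female libraries in the fit, 103 with the slow fibre covariate, and 37 to 215 with 1 library left out. Of the 187, 24 passed under all 15 alternatives, 25 in all 6 fits with a library left out and 23 in none of those. The difference between genotypes, with 0 calls, gave 1 with RLE, 20 with no filter, 43 with DESeq2 and 0 to 2 with 1 library left out. For flox females the count of 19 was 4 with library totals alone, 329 with no filter, 143 with DESeq2, 10 with limma-voom, 10 with non-robust estimates and 3 to 87 with 1 library left out. For transgene males the count of 139 was 221 with no filter, 328 with DESeq2, 27 with the 6 transgene males alone and 68 to 151 with 1 library left out. The causes were not tested. Of the values of named genes under the alternatives, 729 stayed on their side of the threshold, 245 lost the call and 1 reversed: Esr1 was 0.19 (adjusted p = 0.717) without tamoxifen library 921, within a range of -0.63 to 0.19 over the fits with 1 library left out.

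Transgene females share no replicate numbers. In flox females the numbers did not pair the libraries, with correlations of same-numbered deviations of -0.20, -0.03 and -0.10, and none correlated best with its own number; the replicate block gave 15 calls there and 0 for the difference between genotypes. With 3 libraries a group, small changes and weakly counted genes are the least certain, and 68 of the 187 called genes share exons with another gene.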

Other observations

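Called genes outside the lists fell into other groups, which were put together after their values were seen and carry no test as groups. Receptor tyrosine phosphatases beside Ptprd were Ptprm, at 0.56 ± 0.08 on the log2 scale (adjusted p = 0.0151), and Ptprf, at 1.03 ± 0.20 (adjusted p = 0.0471). Guidance and adhesion genes that rose were Sema7a, a membrane semaphorin (0.86 ± 0.13), Plxna2, a semaphorin receptor (0.71 ± 0.11), and Jup, the junction protein plakoglobin (0.50 ± 0.09), while Sema6d fell by 0.63 ± 0.11. Synj1, the neuronal synaptojanin, rose by 0.70 ± 0.13, and Acap2, a GTPase-activating protein of the endosomal GTPase Arf6, by 0.54 ± 0.09. Adcy6, a second adenylyl cyclase beside Adcy1, had 51.6, 53.3 and 53.6 CPM after tamoxifen, against 36.4, 36.6 and 37.1 CPM after vehicle, and rose by 0.52 ± 0.07 (adjusted p = 0.0116). Pde4b, a phosphodiesterase that breaks down cyclic AMP, fell by 0.52 ± 0.10, and Ppp1r1a, an inhibitor of protein phosphatase 1 that cyclic AMP signalling activates, rose by 0.76 ± 0.13.

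Genes of the Hippo pathway that fell were Vgll4, a cofactor that competes with Yap for TEAD factors, at -0.82 ± 0.10, and Sav1, a scaffold of the core kinases, at -0.67 ± 0.12, while Wwc2, a Kibra relative, rose by 0.72 ± 0.13. Among actin regulators the formins Fhod1 and Fmnl2 fell by 0.52 ± 0.08 and 0.82 ± 0.14, and the formin Inf2 rose by 0.81 ± 0.14. Secreted and receptor genes that rose were Vegfd, a growth factor of lymph vessels (0.75 ± 0.13), Ednrb, an endothelin receptor (0.98 ± 0.14), and Cntfr, a receptor subunit for the neurotrophic factor CNTF (0.79 ± 0.12), while Wnt4 fell by 0.63 ± 0.11. Acox2, a peroxisomal oxidase of branched fatty and bile acids, had 1.498, 1.67 and 1.66 CPM after tamoxifen, against 0.229, 0.189 and 0.123 CPM after vehicle, and rose by 3.14 ± 0.30 (adjusted p = 0.0039). Msrb1, a selenoprotein that repairs oxidised methionine, had 114, 112 and 123 CPM, against 73.3, 72.2 and 75.1 CPM, and rose by 0.66 ± 0.07 (adjusted p = 0.00641). Of the genes of both paragraphs, Acox2 and Vgll4 held in all 15 alternatives, as did Ptprd, described above. The calls of Pde4b and Ptprf held in 4 and 5 of the 15, and in 0 of the 6 fits with 1 library left out.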
